A study of Mus musculus with 6 samples.

Results

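Joins without a D call are rearranged Igh sequences in which a V gene and a J gene were assigned and no D gene was. They were taken as the sequences whose D call was empty in the deposited tables. They numbered 12588 of 228609 sequences over 6 libraries, a share of 5.51% (Wilson 95% interval 5.41% to 5.6%, which covers counting error only). The libraries were made by VDJ-seq, which captures and sequences rearranged heavy chain genes from genomic DNA, from splenic B cells of C57BL/6 mice 12 weeks old. The B cells were enriched on magnetic columns by removing other cells. Of the 6 libraries, 4 differed in the DNA put in (5 µg, 2.5 µg, 1 µg or 500 ng), and the Q5_vent and Q5_Q5 libraries carry the names of polymerases as their labels, with no DNA amount given. Each library was the only one of its kind, and the labels do not say whether libraries shared an animal or a DNA sample, so tests compare the 2 kinds of join within the 6 libraries and measure the spread between these libraries, which may be technical. DNA libraries hold no marker expression, so the cell type label was not checked.

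A complete heavy chain gene is assembled in 2 steps, D to J and then V to DJ, and the D gene supplies much of the middle of CDR3, the most variable loop of the antibody. Nucleases trim the ends before joining and terminal transferase adds random N bases rich in G and C, so a D gene can be trimmed until too little is left to be recognised. A direct V to J join of the heavy chain is disfavoured by the 12/23 rule, since V and J segments carry the same kind of recombination signal. An empty D call therefore says that no D gene was recognised, and not that none took part.

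Examples of such joins are the CDR3s of clones (identical CDR3 bases with one V gene and one J gene) that were found in several libraries. These clones are a small part of the class, 128 of 12173, and need not be typical of it. Their CDR3s are printed 5′ to 3′ as deposited. The bases between the end of the V alignment and the start of the J alignment, called the gap below, are in capitals.
Ighv5-15 with Ighj4: gcaagacaTGGGGGTTCtgctatggactac
Ighv6-3 with Ighj2: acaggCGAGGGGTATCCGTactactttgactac
Ighv1-5 with Ighj2: acaagaGGGGAACactactttgactac
Ighv1-12 with Ighj1: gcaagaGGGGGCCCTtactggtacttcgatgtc
Ighv14-3 with Ighj4: gctagaGGGGGGTCctatgctatggactac
Ighv6-3 with Ighj3: acagACCCGGGGGggtttgcttac
Ighv9-3 with Ighj4: gcaagGGAGCCctatgctatggactac
Ighv6-3 with Ighj3, another clone: ATTGACCCTCcctggtttgcttac
Ighv9-2 with Ighj4: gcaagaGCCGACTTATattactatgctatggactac
Ighv1-9 with Ighj4: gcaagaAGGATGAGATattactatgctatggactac
These are the 10 clones found in the most libraries. They are not in order of library number: the 7 with the larger share of G between V and J come first, and the last 3 follow. The split is not sharp, as the Ighv1-9 clone is close to the Ighv6-3 clone with Ighj2 in this share. In the second Ighv6-3 clone with Ighj3 the gap starts 1 base before the CDR3. The extremes of the class are shown by a clone in which V and J bases meet with no base between them, so that nothing is in capitals, and by the sequence with one of the 2 longest gaps.
Ighv7-3 with Ighj4, gap of 0: gcaagaaatgctatggactac
Ighv1-55 with Ighj2, gap of 31: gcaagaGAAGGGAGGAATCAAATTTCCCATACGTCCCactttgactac

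The share of joins without a D call lay in a narrow range over the libraries. It was 5.61% of 112320 sequences at 5 µg (Wilson 95% interval 5.48% to 5.75%), 5.32% of 56006 at 2.5 µg (5.13% to 5.5%), 5.5% of 17055 at 1 µg (5.17% to 5.85%) and 5.68% of 8704 at 500 ng (5.21% to 6.18%). It was 5.28% of 19490 in the Q5_vent library (4.98% to 5.61%) and 5.63% of 15034 in the Q5_Q5 library (5.27% to 6.01%). The mean was 5.5% ± 0.167 (SD, n = 6 libraries), and the intervals, which cover counting error only, overlapped in 15 of 15 pairs of libraries, by least between 5 µg and 2.5 µg. With 1 library for each amount and polymerase, no difference between them was tested. Counting joins with a D alignment under 6 bases as lacking a D call raised the mean share to 12.1%, so the size of the class rests on the shortest alignment the authors' caller accepted, which was 5 bases in these tables.

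**Figure D1:**
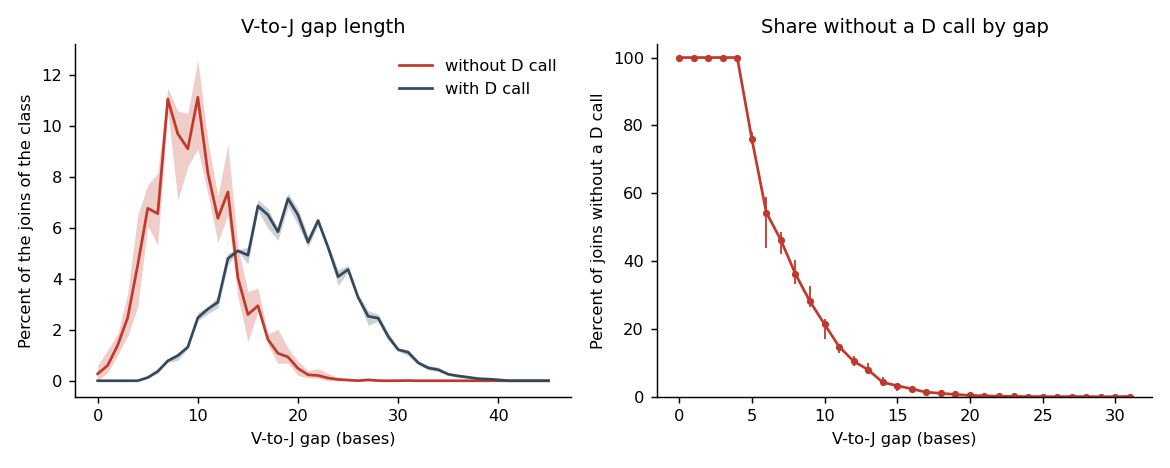
Left, distribution of the V-to-J gap in bases for joins without (red) and with (blue) a D call, as percent of the joins of each class; lines are means over 6 libraries and bands span the lowest to the highest library. Right, percent of all joins that had no D call at each gap length, with bars from the lowest to the highest library; the share is 100% below 5 bases, 76.1% at 5 and 3.26% at 15.

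CDR3 was shorter in joins without a D call, by less than the mean length of a D alignment. Mean CDR3 length was 30.4 bases ± 0.165 (SD, n = 6 libraries) without and 38.6 ± 0.0797 with a D call, and the within-library difference was -8.21 ± 0.197 bases. The lowest, median and highest library means were 30.2, 30.4 and 30.7 bases without a D call, against 38.5, 38.6 and 38.7 with one, so the library means did not overlap. The sequences themselves did, with an SD over sequences of 4.5 bases without and 7.19 with a D call. The median was 30 bases against 39 in all 6 libraries, with quartiles of 27 and 33 in every library without a D call and a lower quartile of 33 with one. These lengths are given without a test, because the D call is itself made from the bases of the gap.

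The deposited N length next to V (NP1) covers the whole V-to-J gap where there is no D, so it is not the same measure in both classes. It averaged 9.46 bases ± 0.122 (SD, n = 6 libraries) in joins without a D call, where it equals the gap, and 4.33 ± 0.015 in joins with one. The whole gap, made of the N bases on both sides and the D bases, averaged 19.3 ± 0.0259 bases with a D call, of which 11.7 aligned to D and 7.62 ± 0.0177 were N bases on either side. Joins without a D call therefore carried 1.84 ± 0.122 more unassigned bases than the N bases of a join with one, and 9.87 ± 0.103 fewer bases between V and J in all. J bases made up 14.5 bases of CDR3 against 13.2, and V bases 6.46 against 6.19. The J genes differed in this, with 16.4 bases against 15.9 in Ighj4, 12.3 against 10.6 in Ighj2, 11.9 against 11.1 in Ighj3 and 16 against 16.3 in Ighj1.

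A gap of 0 to 4 bases, too short to hold the shortest accepted D alignment, occurred in 1187 joins, 9.43% of the class. Another 5437 joins (43.2%) had gaps of 5 to 9 bases, 4670 (37.1%) of 10 to 14 and 1294 (10.3%) of 15 to 31. Among all joins, the share without a D call was 100% up to 4 bases by construction, and then 76.1% at 5 bases, 46.2% at 7, 21.4% at 10, 3.26% at 15 and 0.426% at 20 bases. The longest gap without a D call was 31 bases, against 89 with one.

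The gap bases of these joins held no D-derived stretch long enough to be called. The germline D genes were read back from the joins with a D call, for 22 of 27 D alleles, and 0 of 12588 joins without a D call shared a run of 5 or more bases with any of them on the same strand. The longest shared run was 4 bases in 10178 joins, 3 bases in 1986 and under 3 in the rest. In joins with a D call, 609 of 216021 had a longest run under 5. The rule of the caller fixes this contrast, so it describes how clean the class is and shows nothing about its origin.

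Some of these gaps matched a D gene read backwards. A run of 6 or more bases of the reverse complement of a D gene was present in 581 joins, of 8 or more in 24 joins from 23 clones, and of 10 or more in 5 joins. As means over libraries, such runs of at least 6 were in 4.64% of joins without and 67.8% of joins with a D call. Runs of at least 8 were in 0.155% and 16.4%. The rule fixes part of this contrast, so it shows nothing about inversion. The last 8 bases of Ighd1-1, for example, are their own reverse complement, and joins without a D call hold no same-strand D run that long. Their gaps were also shorter, at a mean of 9.46 against 19.3 bases. Of the 24 joins, 13 matched Ighd4-1, the D gene nearest to the J genes, and 16 were productive. Inversion of a D gene during joining is a known and rare event. The genes concerned are shown with the germline sequences of Ighd2-4 (mm10, RefSeq GRCm38.p6, chromosome 12, positions 113470694 to 113470710) and Ighd4-1 (113430528 to 113430538), with the bases whose reverse complement recurs below in capitals, and then with joins in which the capitals mark the matching run.
Ighd2-4 germline: tctaCTATGATTACGAC
Ighd4-1 germline: ctAACTGGGAC
Ighv1-26 with Ighj4, 5 µg: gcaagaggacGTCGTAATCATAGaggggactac
Ighv1-66 with Ighj3, Q5_Q5: gcaagaTCGTAATCATAgtttgcttac
Ighv5-4 with Ighj4, 5 µg: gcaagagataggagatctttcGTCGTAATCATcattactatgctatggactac
Ighv1-54 with Ighj2, 2.5 µg and 5 µg: gcaagaggGTCCCAGTTtagctttgactac
Ighv1-69 with Ighj2, 5 µg: gcaatcccGTCCCAGTTcgactttgactac
The longest run was 13 bases, in the Ighv1-26 join. How many runs of each length unrelated bases would give was not tested.

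The gap bases were richer in G than those of joins with a D call and close to their N bases. G made up 42.3% ± 0.414 (SD, n = 6 libraries) of the gap without a D call, 30.7% ± 0.0572 of the gap with one, and 43.5% ± 0.0815 of the N bases of joins with one. G and C together made up 64.5%, 51.1% and 66.5% of these. In both measures the gap of the class lay between N bases and D-containing gaps and nearer to N bases, and the libraries of the 3 kinds did not overlap. The D call is made from these same bases, so the rule fixes part of this contrast. It is given without a test and shows nothing about the origin of the gap bases.

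**Figure D2:**
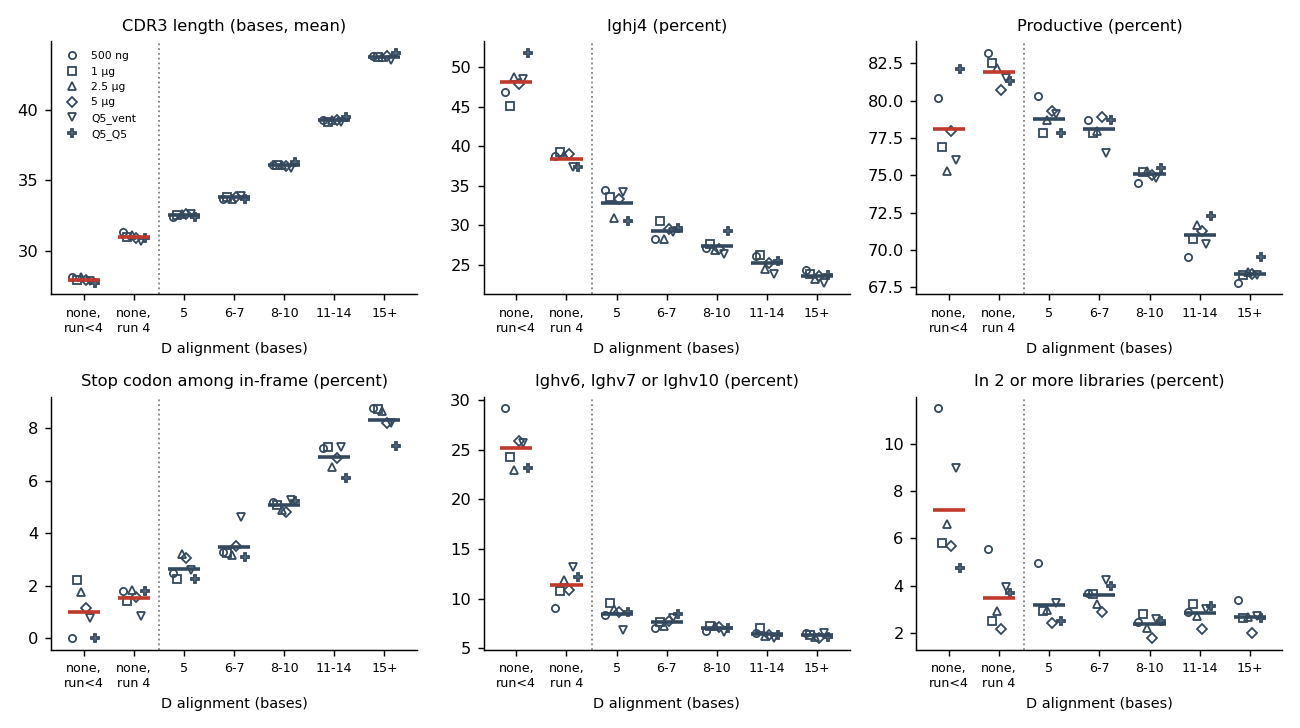
Each panel gives a measure for joins grouped by the length of the D alignment in bases, from joins without a D call whose longest run shared with a D gene was under 4 or exactly 4 bases (red bars, left of the dotted line) to D alignments of 15 bases or more; points are the 6 libraries and bars their means. Ighj4, the Ighv6, Ighv7 and Ighv10 families and recurrence are highest at the left, and stop codons are highest at the right.

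The boundary of the class was not sharp in most measures. Joins whose D alignment was the shortest accepted, 5 bases, numbered 14852, and the values on either side of the call were near each other. Mean CDR3 was 31 bases in joins without a D call that shared a run of 4 and 32.5 in joins with a D alignment of 5, rising to 43.8 with 15 or more. Ighj4 took 38.4% ± 0.867 (SD, n = 6 libraries) and 32.8% ± 1.69 on the 2 sides, and 23.5% ± 0.516 with 15 or more. In-frame joins with a stop codon were 1.54% ± 0.378 and 2.65% ± 0.41, and 8.31% ± 0.557 with 15 or more. The step from joins with a run under 4 to those with a run of 4, both without a D call, was larger for the Ighv6, Ighv7 and Ighv10 families together, at 25.2% ± 2.29 and 11.4% ± 1.44, than the step across the call, to 8.5% ± 0.921. No test is given along this axis, since it is the axis of the rule.

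Joins without a D call were more often productive, meaning in frame and free of stop codons. The lowest, median and highest productive shares were 80.2%, 81.1% and 82.6% without a D call and 72.2%, 72.7% and 73.5% with one, so the libraries of the classes did not overlap. The difference was 8.49 ± 1.11 percentage points (SD, n = 6), higher in 6 of 6 libraries (two-sided exact sign-flip permutation test, p = 0.0312, the smallest that 6 libraries allow). After Benjamini-Hochberg adjustment over 25 such tests the exact p was 0.0558, the smallest value that the tests together gave, so no single-value comparison of all joins passed 0.05 after adjustment. Under alternatives in which more of the 25 tests reached that smallest p, the adjusted value was lower (0.0434 at equal CDR3 length). The in-frame share was 82.4% ± 0.946 against 77.4% ± 0.312, a difference of 4.98 ± 1.07 points with the same exact p-values, in 6 of 6 libraries.

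Stop codons made up the remainder. Among in-frame joins, 1.43% ± 0.327 (SD, n = 6 libraries) had a stop codon without a D call and 6.06% ± 0.307 with one. The lowest library with a D call, at 5.51%, was above the highest without, at 1.84%. D genes carry stop codons in some reading frames. The gap bases that can hold a stop codon also decide the D call, so the stop contrast is tied to the rule and is given without a test. The productive share includes it, so the tested productive difference is tied to the rule in part. When joins with a D call were weighted to the CDR3 lengths of those without, the in-frame shares became equal by construction and the productive difference was 3.27 ± 0.624 points, in 6 of 6 libraries. Weighted to the same gap lengths (gaps of at least 5 bases) it was 2.93 ± 1.68 points, in 6 of 6 libraries. Within the class, the productive share was 79.1% at gaps of 0 to 4 bases, 80.2% at 5 to 9, 82.0% at 10 to 14 and 78.8% at 15 to 31.

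**Figure D3:**
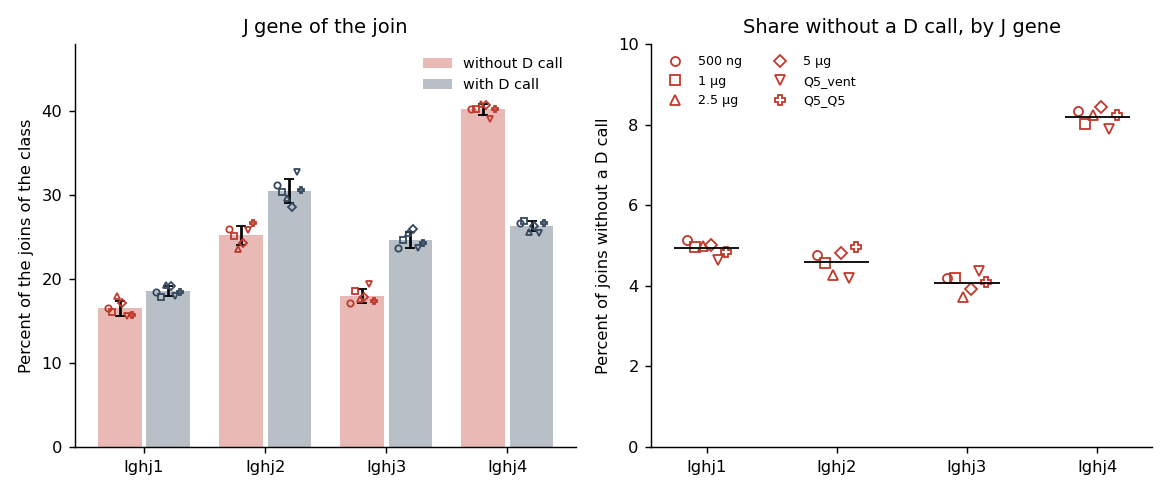
Left, percent of joins using each J gene without (red) and with (blue) a D call; bars are means over 6 libraries, error bars the SD and points the libraries. Right, percent of the joins of each J gene that had no D call, per library with the mean as a line; Ighj4 lies between 7.89% and 8.44% and the other J genes between 3.72% and 5.14%.

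Ighj4, the J gene farthest from the D genes, was the most used J gene of joins without a D call. Its share was 39.1% in the lowest library, 40.3% at the median and 40.8% in the highest, against 25.5%, 26.5% and 26.9% in joins with a D call. The difference was 14 ± 0.751 percentage points (SD, n = 6), higher in 6 of 6 libraries (exact sign-flip permutation p = 0.0312, adjusted 0.0558). The other J genes were lower in 6 of 6 libraries, with the same exact p-values. Ighj3 took 18% against 24.6% (difference -6.63 ± 1.39 points), Ighj2 25.2% against 30.5% (-5.31 ± 1.16) and Ighj1 16.5% against 18.6% (-2.03 ± 0.501).

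Read the other way, 8.23% of Ighj4 joins lacked a D call at the median library (7.89% to 8.44%), against 4.97% of Ighj1 (4.63% to 5.14%), 4.67% of Ighj2 (4.20% to 4.96%) and 4.14% of Ighj3 joins (3.72% to 4.37%). Ighj4 stood above the other J genes in every library, while the ranges of Ighj1 and Ighj2 overlapped, as did those of Ighj2 and Ighj3. The share of Ighj4 within the class was highest where the gap was shortest, at 56.4% for gaps of 0 to 4 bases, 45.0% for 5 to 9, 34.3% for 10 to 14 and 29.7% for 15 to 31.

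The J differences depended on what was held equal. At equal gap length (gaps of at least 5 bases), joins without a D call differed by 6.58 ± 1.57 points in Ighj4 and by -8.69 ± 1.5 in Ighj1, each one way in 6 of 6 libraries. The Ighj2 and Ighj3 differences turned to 0.425 ± 1.09 and 1.68 ± 1.26. At equal CDR3 length the Ighj4 difference was 24.5 ± 0.816 points and the Ighj2 and Ighj3 differences were -19.3 ± 2.09 and -12.8 ± 2.28, and that of Ighj1 turned to 7.58 ± 0.53. In joins with a D call, J bases made up 16.3 bases of CDR3 in Ighj1, 15.9 in Ighj4, 11.1 in Ighj3 and 10.6 in Ighj2, so that an equal CDR3 length is not an equal gap length. Sequences whose primer tag was marked unclear were 4.43% ± 0.964 without and 11.9% ± 1.73 with a D call. Without them the Ighj4 difference was 12.4 points, the Ighj2 difference -1.67 and the Ighj1 difference -3.85. At equal CDR3 length, unclear tags were 4.4% without and 26.6% with a D call. What this imbalance does to the J differences at equal CDR3 length was not tested.

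J alignments also reached the start of the J gene more often, except for Ighj1. The J alignment began at the first germline base in 32.1% ± 1.5 (SD, n = 6 libraries) of joins without a D call and 25.6% ± 0.671 with one. The difference was largest for Ighj2, at 51% ± 4.41 against 29.3% ± 1.1, followed by Ighj3 at 43.3% ± 4.45 against 31.6% ± 1.44 and Ighj4 at 21.6% ± 2.02 against 16.2% ± 0.693. Ighj1 went the other way, at 16.2% ± 1.33 against 24.6% ± 0.839. An added base that equals the germline base is counted as germline in both classes. No test was made on this measure, since the J alignment sets where the gap begins and the D call is made from the gap.

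A gap of 0, where the V and J alignments meet, was found in 43 joins of 37 clones. It does not say that no D gene took part. Of the 43 joins, 29 were productive, against 81.2% of the whole class (class shares here are means over libraries). Ighj4 took 21 of the 43 and Ighj1 16, against 40.2% and 16.5% of the class. The Ighv7 family took 12 and the Ighv10 family 11, against 3.04% and 5.53% of the class. These differences were not tested. By gene, Ighv7-3 led with 9, Ighv10-1 had 6, and Ighv10-3 and Ighv13-2 had 5 each. Only 3 of the 37 clones were found in 2 or more libraries, namely the Ighv7-3 clone printed above, which was found 4 times over 3 libraries, and 2 clones of Ighv13-2 with Ighj1, each found once in 2 libraries.

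**Figure D4:**
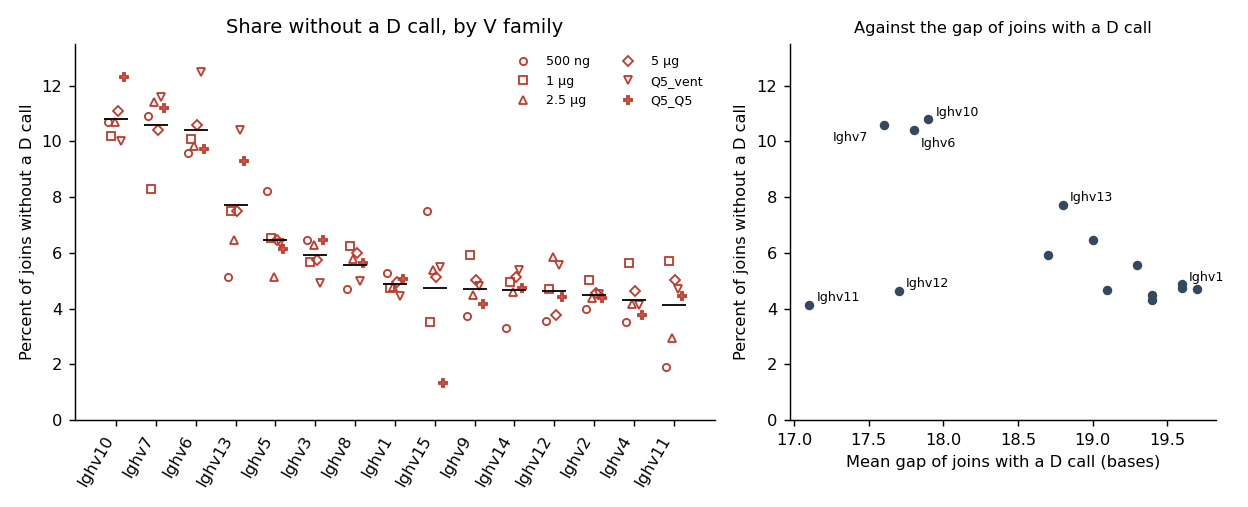
Left, percent of the joins of each V family without a D call, per library (points) with the mean as a line, for the 15 families with at least 1000 sequences. Right, the same means against the mean V-to-J gap in bases of the family's joins with a D call; Ighv6, Ighv7 and Ighv10 lie at 10.4% to 10.8% at gaps of 17.6 to 17.9 bases, and Ighv11 and Ighv12 are below 5% at gaps as short.

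The families Ighv6, Ighv7 and Ighv10 lacked a D call most often, and more often than Ighv1, the largest family, in every library. The share without a D call was 10.8% ± 0.828 (SD, n = 6 libraries) in Ighv10, 10.6% ± 1.22 in Ighv7 and 10.4% ± 1.07 in Ighv6, against 4.88% ± 0.288 in Ighv1. The lowest libraries of the first 3 were at 10%, 8.3% and 9.6%, above the highest of Ighv1 at 5.28%. Ighv13 followed at 7.72% ± 1.91, and the other families lay between 4.13% and 6.47%.

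As shares of the class, Ighv10 made up 5.53% of joins without and 2.64% of joins with a D call (difference 2.88 ± 0.482 points), Ighv6 5.41% and 2.72% (2.69 ± 0.612) and Ighv7 3.04% and 1.48% (1.56 ± 0.451). Ighv1 made up 50.1% and 56.9% (difference -6.77 ± 1.81 points) and Ighv2 4.47% and 5.55% (-1.08 ± 0.453). These 5 of the 15 families tested moved one way in 6 of 6 libraries (exact sign-flip permutation p = 0.0312, adjusted 0.0558 each). The other 10 had exact adjusted p-values from 0.0781 to 0.781.

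The 3 families also had shorter gaps where a D gene was called. Their mean gaps with a D call were 17.6 bases in Ighv7, 17.8 in Ighv6 and 17.9 in Ighv10, against 19.6 in Ighv1. At equal gap length (gaps of at least 5 bases), the differences were 0.59 ± 0.892 points for Ighv6, -0.0572 ± 0.59 for Ighv7 and -0.0412 ± 0.686 for Ighv10. All were within 1 SD of 0, and that of Ighv1 turned to 4.27 ± 3.0. Part of the change came from the shorter gaps left out. With these left out, joins without a D call used Ighv10 in 4.18% against 5.53% before, Ighv7 in 2.4% against 3.04% and Ighv6 in 5.11% against 5.41%. At equal CDR3 length the Ighv6 difference turned to -2.76 points. Ighv11 and Ighv12, with mean gaps of 17.1 and 17.7 bases with a D call, lacked a D call in 4.13% ± 1.41 and 4.65% ± 0.928 of joins. At equal gap length their differences were -1.74 ± 0.464 and -2.06 ± 0.934 points, lower in 6 of 6 libraries. Sequences of clones found in several libraries count in these differences, as described below for Ighv11-2 and Ighv12-3.

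**Figure D5:**
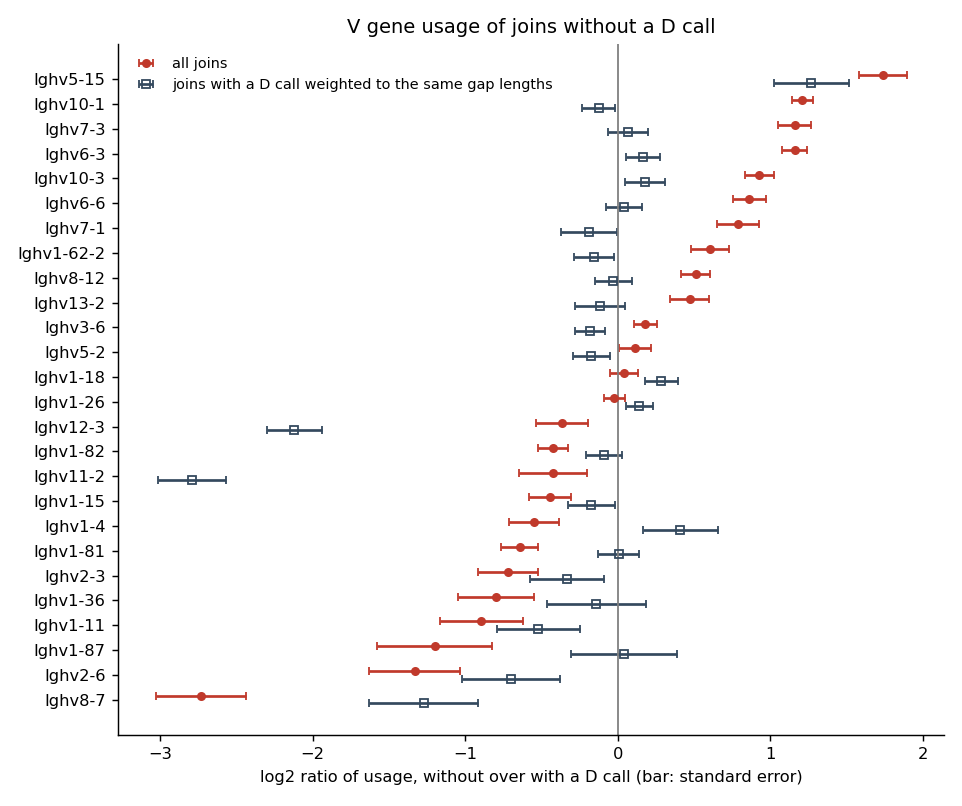
Log2 ratio of V gene usage in joins without over joins with a D call (limma voom, library as block) for the named V genes, with standard errors; filled circles use all joins and open squares weight joins with a D call to the same gap lengths. Most genes move to near 0 at equal gap length; Ighv5-15 stays above 1, and Ighv11-2 and Ighv12-3 move below -2.

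Among single V genes, 11 of 89 with at least 500 sequences were used more in joins without a D call (12.4%) and 11 of 89 were used less (12.4%), at an adjusted p under 0.05 by limma voom with the library as a block. The median log2 ratio over the 89 genes was -0.17. The genes used more included both tested members of the Ighv6, Ighv7 and Ighv10 families, and 8 of the 11 used less were of the 42 tested Ighv1 genes. The count used less was not stable. It was 17 without the 2.5 µg library and 7 without the 5 µg library.

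Ighv10-1 lacked a D call in 414 of 3501 sequences, with library shares of 11%, 11.8% and 13.4% (lowest, median, highest) and a log2 ratio of 1.21 ± 0.07 (SE, limma voom adjusted p = 5.71e-10). It lies on chromosome 12 from 114479007 to 114479451 (GRCm38.p6). Ighv6-3, at 114391712 to 114392010, lacked a D call in 422 of 3718 sequences (log2 ratio 1.16 ± 0.0844). Ighv7-3, at 114153180 to 114153644 and listed there as a V segment pseudogene although 77.1% of its sequences here were productive, did so in 231 of 2048 (1.16 ± 0.106). Apart from Ighv5-15, the other genes used more were Ighv10-3 (0.93 ± 0.0953), Ighv6-6 (0.86 ± 0.109), Ighv7-1 (0.79 ± 0.136), Ighv1-62-2 (0.60 ± 0.126), Ighv8-12 (0.51 ± 0.0944), Ighv13-2 (0.47 ± 0.127) and Ighv5-16 (0.36 ± 0.123), the last of which falls outside the rule for named genes and was named after its values were seen. In the same fit at equal gap length (gaps of at least 5 bases) these genes, Ighv5-16 left out, had log2 ratios between -0.19 and 0.18, and none passed the threshold.

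Ighv5-15 had the highest ratio, and the call rested on 1 clone. It lacked a D call in 102 of 628 sequences (log2 ratio 1.74 ± 0.156, limma voom adjusted p = 1.39e-07), of which 70 were the clone printed first above and the rest came from 32 other clones. With 1 count per clone the log2 ratio was 0.54 and the call was lost (limma voom adjusted p = 0.0853). It lies from 113826648 to 113826941 on chromosome 12.

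The lowest ratios were those of Ighv8-7, Ighv2-6 and Ighv1-87. Ighv8-7, listed as a V segment pseudogene at 115258139 to 115258432, lacked a D call in 1 of 568 sequences, a share of 0.176% (exact 95% interval 0.00446% to 0.977%), and its mean gap with a D call was 24.6 bases. Its fitted log2 ratio of -2.73 ± 0.296 depends on the offset that voom adds to small counts. Ighv2-6 lacked a D call in 21 of 962 sequences (log2 ratio -1.33 ± 0.299) and Ighv1-87 in 27 of 940 (-1.20 ± 0.378). In joins with a D call, V bases made up 29.7 bases of CDR3 in Ighv1-87, whose mean gap was 22.6 bases. They made up 2.97 bases in Ighv8-7 and 6.61 in Ighv2-6, against 6.19 over all joins with a D call. V alignments of Ighv1-87 and Ighv8-7 thus ended at unusual places in CDR3, and what this does to their D calls was not tested. Ighv1-11 (-0.89 ± 0.27), Ighv1-36 (-0.80 ± 0.249), Ighv2-3 (-0.72 ± 0.197), Ighv1-81 (-0.64 ± 0.121), Ighv1-4 (-0.55 ± 0.164), Ighv1-15 (-0.44 ± 0.137) and Ighv1-82 (-0.42 ± 0.0988) followed, and the 11th, Ighv1-50 (-0.41 ± 0.126), was named after its values were seen. At equal gap length Ighv8-7 alone of the first 10 passed the threshold (-1.27 ± 0.357), and the ratios of Ighv1-4 (0.41 ± 0.246), Ighv1-87 (0.042 ± 0.35) and Ighv1-81 (0.0066 ± 0.133) turned. That of Ighv1-4 also turned with calls naming a single V gene (0.0521).

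Of the 5 V genes that joins without a D call used most, Ighv6-3 and Ighv10-1 are described above and the other three did not pass the threshold. Ighv1-26, also the most used V gene of these libraries, supplied 620 of them, 5.33% of its 11632 sequences, with a log2 ratio of -0.02 ± 0.0699. Ighv3-6 supplied 438 (0.18 ± 0.0775) and Ighv1-18 supplied 325 (0.04 ± 0.0914). Ighv5-2, known as 81X and one of the V genes closest to the D genes, lacked a D call in 233 of 3971 sequences (0.11 ± 0.102).

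Ighv11-2 and Ighv12-3, the V genes of the B-1 cells that bind phosphatidylcholine, lacked a D call in 39 of 969 and 82 of 1898 sequences. Their log2 ratios of -0.42 ± 0.223 and -0.36 ± 0.171 did not pass the threshold (limma voom adjusted p = 0.179 and 0.142). At equal gap length the ratios were -2.79 ± 0.222 and -2.12 ± 0.18, and both passed. They made up 7.73% of joins with a D call at gaps of 5 to 9 bases and 1.23% of joins without one at the same gaps. Of the 7647 joins with a D call at these gaps, 471 used these V genes and were of clones found in 2 or more libraries. Whether the 2 calls at equal gap length hold with 1 count per clone was not tested.

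Joins without a D call were found again in another library somewhat more often. The share of sequences whose clone was in 2 or more libraries was 2.84% in the lowest library, 3.78% at the median and 6.68% in the highest without a D call, and 2.15%, 2.96% and 3.17% with one. The classes overlapped in these ranges, although the value without a D call was the higher in 6 of 6 libraries (difference 1.34 ± 1.19 points, range 0.101 to 3.51, exact sign-flip permutation p = 0.0312, adjusted 0.0558). Without the Ighv5-15 clone the difference was 0.66 ± 0.846 points, higher in 5 of 6 libraries (exact p = 0.0938), and with clones defined by J gene and CDR3 alone it was 2.64 ± 0.896. By clones, 128 of 12173 without and 1614 of 210679 with a D call were found in 2 or more libraries. Recurrence counts depend on the depth of all libraries together, and shared DNA between libraries could not be told apart from clones that arose more than once.

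The direction turned when the gap was held equal. Over gaps of at least 5 bases, recurrence was then 3.59% without and 7.38% with a D call (difference -3.79 ± 0.622 points, lower in 6 of 6 libraries). Within the class it was highest at the shortest gaps, at 7.25% of 1187 joins with gaps of 0 to 4 bases, 4.19% of 5437 with 5 to 9, 2.12% of 4670 with 10 to 14 and 1.47% of 1294 with 15 to 31. Joins with a D call and gaps of 5 to 9 bases recurred in 10.1% of 7647, and 60.9% of those recurring sequences used Ighv11-2 or Ighv12-3. With these V genes set aside, the shares at gaps of 5 to 9 bases were 4.10% without and 4.28% with a D call.

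The clone seen most was the Ighv5-15 clone with Ighj4, which was productive, had a CDR3 of 30 bases and was found 70 times. It was found in all 6 libraries, 34 times at 5 µg, 12 at 2.5 µg, 6 at 1 µg, 8 at 500 ng, 7 in the Q5_vent library and 3 in the Q5_Q5 library, which is 0.02% to 0.0919% of a library. Only the Ighv6-3 clone with Ighj2 was also in all 6 libraries, with 7 sequences. The Ighv1-5 clone was in 5 libraries with 9 sequences. The 7 clones ranked next, which included 2 more clones of Ighv6-3, were in 3 or 4 libraries with 5 to 11 sequences each, and all 10 were productive. No clone was in both classes, which is close to fixed, since a clone shares its CDR3 bases and the D call is made from them.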

How the data were processed

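Igh rearrangements were sequenced from genomic DNA in 6 libraries of 8704 to 112320 sequences. Tools named in the submitters' processing notes are Bowtie2 2.3.2 and Trim Galore 0.4.4, with mm10 as the build. Per the file headers each row of the deposited tables is 1 sequence with V, D and J calls, alignment starts and lengths in bases, CDR3 and productive and frame flags. For the D caller, version and minimum match were not given in the sources used here. A sequence was counted by the first V gene of its call (11.23% of calls named several, so near-identical V genes are uncertain). The gap equalled the sum of both N lengths and the D alignment in 100% of rows. Germline D alleles were the majority bases at each position of joins calling them, where every base was read at least 10 times. Coordinates are those of RefSeq GRCm38.p6, in which 87 of the 89 tested V genes were found.

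Shares carry Wilson 95% intervals, except 1 exact one. Within-library differences were tested by exact sign-flip permutation over 64 sign patterns, adjusted over 25 tests. V genes were tested with limma 3.58.1 in R 4.3.3 (voom on the numbers of sequences, library as block). The fit was also run on simulated counts. These held no spread between libraries beyond counting error and no large clones, so they do not cover such spread in the real counts. Python 3.11.15, pandas 2.3.3 and SciPy 1.17.1 did the rest. Named V genes were those with the largest called ratios (up to 10 either way), the most used by joins without a D call, and Ighv11-2, Ighv12-3, Ighv5-2 and Ighv1-26. The class and these lists were chosen with earlier results of these data known. Holding gap length equal, 1 count per clone for recurrence and leaving out the largest clone were chosen after seeing the data. Equal gap length covers only gaps of at least 5 bases, since no join with a D call had a shorter one. Alternatives are given in the closing section.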

Additional observations from a re-analysis of the deposited data

Results flagged for a closer look

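In 2 of the 29 sets of 6 values examined, 1 library stood apart from the other 5 by Dixon's 95% criterion, which chance alone meets in about 1 in 20 groups. The Ighv6 difference in usage (without minus with a D call) was 3.84 percentage points in the Q5_vent library, and the nearest of the other libraries was at 2.69. The Ighv10 difference was 3.81 percentage points in the Q5_Q5 library, and the nearest other was at 2.90. Both differences pointed the same way in all 6 libraries, and neither was tested between polymerases, since each has 1 library.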

How the results depend on the processing

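Values below are differences, without minus with a D call, in percentage points or bases unless another quantity is named. With CDR3 length held equal, the productive difference was 3.27, Ighj1 7.58 (turned), Ighj2 -19.3, Ighj3 -12.8, Ighj4 24.5 and recurrence 1.27, all with an exact adjusted p of 0.0434; Ighv2 (1.05), Ighv4 (0.0245), Ighv6 (-2.76), Ighv12 (0.389) and Ighv13 (-0.302) turned, and 11 V families passed 0.05 against 0. With CDR3 length held equal, sequences with unclear primer tags were 4.4% without and 26.6% with a D call. With gap length held equal (gaps of at least 5 bases), Ighj2 (0.425), Ighj3 (1.68), recurrence (-3.79), Ighv1 (4.27), Ighv3 (-0.853), Ighv4 (0.00291), Ighv7 (-0.0572), Ighv8 (-0.275), Ighv9 (0.161) and Ighv10 (-0.0412) turned. The same setting left 5 V genes used more and 5 used less, of which 1 and 1 were among the original 11 and 11, and turned the log2 ratios of Ighv10-1 (-0.12), Ighv7-1 (-0.19), Ighv1-62-2 (-0.15), Ighv8-12 (-0.0284), Ighv13-2 (-0.11), Ighv1-4 (0.41), Ighv1-81 (0.0066), Ighv1-87 (0.042), Ighv1-26 (0.14), Ighv3-6 (-0.18) and Ighv5-2 (-0.17).

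With D alignments under 6 bases counted as no D call, the share was 12.1%, CDR3 -7.51, the gap -8.73, productive 7.66, in-frame 4.48, Ighj1 -1.38, Ighj2 -3.21, Ighj3 -5.82 and Ighj4 10.4 (exact adjusted p = 0.046 for the last 6), 8 families passed, and Ighv8 (-0.0975), Ighv1-26 (log2 0.071), Ighv11-2 (0.15) and Ighv5-2 (-0.0678) turned. Without unclear primer tags the share was 5.94%, CDR3 -8.77 and Ighv8 -0.236. Among productive sequences CDR3 was -7.85, the gap -9.49, Ighv8 -0.00179 and Ighv15 0.0463. The number of V genes used less was 7 among productive sequences, 7 with calls naming a single V gene (Ighv1-4 log2 0.0521), 4 with at least 1000 sequences, 6 without voom weights (Ighv1-26 0.0566, Ighv1-18 -0.0163), and 7 to 17 with 1 library left out. Leaving out 1 library gave Ighv8 -0.0595 to 0.282, and log2 ratios of -0.0413 to 0.138 for Ighv1-18, -0.0744 to 0.0323 for Ighv1-26 and -0.611 to 0.081 for Ighv12-3. The share of joins without a D call holding a D run of 6 bases in either direction was 4.64%, and 24.6% for 5 bases, 0.781% for 7 and 0 on the same strand. The cause of these changes was not tested. Without a library block 12 and 15 V genes passed. With 5 libraries the exact test cannot go below 0.0625, so leaving out a library says nothing about that threshold. The comparisons pair the classes within each library, and groups of libraries were not compared.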

Other observations

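The productive CDR3s of joins without a D call differed in amino acid make-up from those with one, as means over 6 libraries. They averaged 10.2 ± 0.065 residues against 12.8 ± 0.0209 (SD). Arginine made up 12.0% of their residues against 8.98%, alanine 15.2% against 12.5% and methionine 4.42% against 2.41%, while tyrosine made up 18.6% against 21.3%, serine 3.54% against 6.94% and threonine 1.82% against 3.25%. Alanine and arginine are encoded by the end of many V genes, and methionine by the start of Ighj4. When joins with a D call were weighted to the same CDR3 length, the differences were 2.48 ± 0.345 percentage points for arginine, 1.59 ± 0.313 for alanine, -2.06 ± 0.223 for serine, -1.58 ± 0.172 for leucine, -1.52 ± 0.176 for glycine and -0.952 ± 0.0665 for asparagine. Tyrosine, which D genes and J genes both encode, differed by -0.648 ± 0.366 points at equal length, and aspartate by -0.0511 ± 0.244. These are descriptions with no test, since the gap bases that make up the residues also decide the D call.

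Sequences with 5 or more mismatches to their V gene were 0.819% ± 0.132 of joins without and 1.22% ± 0.11 of joins with a D call (difference -0.404 ± 0.121 points, lower in 6 of 6 libraries, exact sign-flip permutation p = 0.0312, adjusted 0.0558). At equal gap length the difference was 0.12 ± 0.207 points. Reads per sequence averaged 10.7 ± 2.57 and 10.9 ± 2.45.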
